A study of Homo sapiens with 8 samples.

Results

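The EGF receptor family and its ligands were followed in DU145 cells, an established human prostate cancer line, on 8 Affymetrix Human Gene 1.0 ST arrays. The genes were chosen by name: the receptors EGFR, ERBB2 and ERBB3, the ligands AREG, EREG, HBEGF, TGFA, BTC and NRG1, and the inhibitor ERRFI1. A probeset belonged to the family where the platform annotation gave it exactly that 1 symbol, which held for 10 probesets of the 33297 on the array and covered 9 of the 10 genes. AREG was not analysed here. NRG1 had 2 probesets and the other 8 genes had 1 each.

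The arrays fell into 4 groups with 2 biological replicates each: Mock, FGF19, TNFα and FGF19 + TNFα. According to the sample labels, FGF19 was used at 50 ng/ml together with heparin at 100 µg/ml for 100 min, and TNFα at 50 ng/ml for 90 min. The methods of the study give 50 µg/ml heparin and 10 ng/ml TNFα, with cells starved for 24 h, FGF19 added 10 min before TNFα and harvest after 1.5 h. The doses therefore differ between these sources. FGF19 is a ligand of FGFR4, TNFα an inflammatory cytokine that activates NFκB, and the comparisons ask how each changed gene expression in the absence and in the presence of the other. Every FGF19 array also received heparin and no array received heparin alone, so FGF19 and heparin cannot be told apart.

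Receptors of the EGF family are tyrosine kinases that pair on the cell surface when a ligand binds and signal through the RAS-MAPK and PI3K-AKT pathways. The ligands are made as membrane-bound precursors, and cell-surface proteases of the ADAM family cut them free. ERBB2 binds no known ligand and serves as the preferred partner of the other receptors, and ERBB3 binds neuregulins but has a weak kinase. ERRFI1, also called MIG6, is induced by receptor signaling and binds the EGFR kinase to switch it off. DU145 cells are known to make EGF receptor ligands of their own.

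The bases upstream of 4 members are printed because these members gave the smallest p-values in the comparison of all 4 groups. Each run is the 250 bases before the annotated start of the gene, written 5′ to 3′ on the strand of the gene, from RefSeq on GRCh38.p14: EREG at chr4:74364895-74365144 (plus strand), HBEGF at chr5:140346604-140346853 (minus strand), EGFR at chr7:55018767-55019016 (plus strand) and ERBB2 at chr17:39687844-39688093 (plus strand). Capitals mark matches, on either strand, to a κB motif, the AP-1 motif TGANTCA, the CRE motif TGACGTCA, the GC box GGGCGG and the TATA box TATAAA.
EREG: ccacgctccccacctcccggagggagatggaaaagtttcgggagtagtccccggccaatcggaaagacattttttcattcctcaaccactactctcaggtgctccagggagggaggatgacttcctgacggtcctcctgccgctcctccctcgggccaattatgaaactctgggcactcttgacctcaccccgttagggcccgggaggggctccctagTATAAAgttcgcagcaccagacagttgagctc
HBEGF: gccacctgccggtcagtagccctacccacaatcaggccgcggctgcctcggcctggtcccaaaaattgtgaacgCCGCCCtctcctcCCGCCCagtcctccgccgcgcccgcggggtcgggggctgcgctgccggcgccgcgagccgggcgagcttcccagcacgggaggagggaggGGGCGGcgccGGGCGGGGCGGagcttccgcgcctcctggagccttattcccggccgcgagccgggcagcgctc
EGFR: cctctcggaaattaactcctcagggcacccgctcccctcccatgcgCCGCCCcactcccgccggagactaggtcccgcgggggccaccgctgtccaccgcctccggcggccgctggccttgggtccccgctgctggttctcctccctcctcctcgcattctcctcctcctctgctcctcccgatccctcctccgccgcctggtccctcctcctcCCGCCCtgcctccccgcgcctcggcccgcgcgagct
ERBB2: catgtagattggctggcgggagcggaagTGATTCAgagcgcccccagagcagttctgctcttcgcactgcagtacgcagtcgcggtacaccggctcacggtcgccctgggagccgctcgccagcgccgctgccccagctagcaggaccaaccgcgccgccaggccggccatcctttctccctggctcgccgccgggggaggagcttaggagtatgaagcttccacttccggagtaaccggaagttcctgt

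The EREG stretch held 1 match, a TATA box 32 bases before the start, and 10.7% of all 35116 windows of this length held that motif. HBEGF had 5 GC boxes, from 176 to 58 bases before the start, and EGFR had 2, at 204 and 36 bases. The GC box stood in 42.6% of all windows. ERBB2 had 1 AP-1 match 222 bases before the start, a motif present in 6.57% of windows. The HBEGF stretch was 76.4% G and C, that of EGFR 73.6%, that of ERBB2 65.6% and that of EREG 58.0%, beside a median of 58.0% over all windows. Of the other members measured on the arrays whose stretch was searched, TGFA had 1 κB match and 3 GC boxes, BTC had 2 κB matches, and ERRFI1 had 1 GC box; a κB match stood in 9.96% of windows. None of EREG, HBEGF, EGFR and ERBB2 held a κB match, which says only that these letters are not in this stretch. Matches overlapped in the HBEGF run alone, where the last 2 GC boxes share a base, and a match describes the letters, not a bound site.

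The authors deposited linear PLIER signal, an arbitrary intensity scale, and array medians ranged from 99.5 to 106.6. Differences are given as log2 differences between group means, with limma's standard error (SE) over 2 arrays per group and a p-value adjusted over all 33297 probesets. A gene is said to rise or fall only where that adjusted p was under 0.05. The labelled treatment was visible in the NFκB targets NFKBIA and TNFAIP3, which were 3.00-fold and 10.5-fold higher with TNFα than in Mock. The 4 arrays that received FGF19, with or without TNFα, stood apart from the 4 that did not, since 32.2% of probesets differed between FGF19 and Mock and 32.4% between FGF19 + TNFα and TNFα, against 1.06% between TNFα and Mock and 0.282% between FGF19 + TNFα and FGF19. All 7 epithelial markers lay above the background, taken as the 95th percentile (73.0) of 360 olfactory receptor probesets, whereas the prostate markers KLK3 and KLK2 lay within it. The summed signal of the epithelial markers moved with FGF19, from 11910 to 12220 in Mock, from 10960 to 11080 with TNFα, from 7764 to 8653 with FGF19 and from 8341 to 8359 with both agents. KRT8, KRT19 and KRT7 fell with FGF19, whereas CDH1 rose in FGF19 + TNFα against TNFα and against Mock, with group means of 565.9 in Mock, 665.6 for FGF19, 581.4 for TNFα and 734.1 for both agents. Above the background lay 2 of 4 leukocyte markers (CD68 and CD14), 1 of 4 fibroblast markers (COL1A1) and 1 of 3 endothelial markers (CDH5). The summed signal of the leukocyte markers was 415.5 to 428 in Mock, 369.4 to 374.7 with FGF19, 411.9 to 433.3 with TNFα and 383.4 to 413.4 with both agents, and within that list CD68 fell with FGF19 while CD3E, within the background, rose. The endothelial sums were 441.5 to 443.8, 498.7 to 511.2, 416.6 to 451.3 and 458.8 to 466.9 in the same order, and the fibroblast sums 208.9 to 209.4, 206.7 to 237.1, 212.8 to 213.9 and 225.8 to 248.4. The part of these shifts in the members' differences was not tested.

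EGFR, the receptor of EREG, HBEGF, TGFA and BTC, was higher with FGF19, whether or not TNFα was present. Its signal was 751.5 and 705.4 in the Mock arrays, 955.1 and 961.6 with TNFα, 1250.5 and 1038 with FGF19, and 1294 and 1424 with both agents. The 4 arrays with FGF19 lay above the 4 without it, and the TNFα arrays lay above the Mock arrays. EGFR rose 1.56-fold with FGF19 alone (log2 difference 0.65, SE 0.12, limma adjusted p = 0.00895) and 1.42-fold when FGF19 was added to TNFα (0.50, SE 0.12, adjusted p = 0.0218). FGF19 + TNFα against Mock gave 1.86-fold (0.90, SE 0.12, adjusted p = 0.00322). The TNFα difference of 1.32-fold did not pass (0.40, 95% interval 0.11 to 0.68, adjusted p = 0.257). Without Mock replicate 2 the rise with FGF19 alone had an adjusted p of 0.0571, in a range of 0.00104 to 0.0571 over 16 alternatives. The rise on top of TNFα was lost without either TNFα array or either FGF19 + TNFα array, with adjusted p from 0.0529 to 0.108, in a range of 0.00433 to 0.108 over its 16 alternatives.

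ERBB2, the co-receptor without a ligand, moved in the opposite direction and was lower in every array with FGF19. The Mock arrays had 322.0 and 338.1 and the TNFα arrays 323.5 and 338.2, whereas the FGF19 arrays had 163.2 and 201.9 and the FGF19 + TNFα arrays 163.9 and 156.9. The arrays without FGF19 fell in one narrow band and those with FGF19 in another, with no overlap. ERBB2 was 1.82-fold lower with FGF19 than in Mock (log2 difference -0.86, SE 0.12, limma adjusted p = 0.00426) and 2.06-fold lower when FGF19 was added to TNFα (-1.05, SE 0.12, adjusted p = 0.00364). With TNFα alone the log2 difference was 0.00 (95% interval -0.29 to 0.29). ERBB2 passed the threshold in both FGF19 comparisons under all 16 alternatives, with adjusted p from 0.000554 to 0.0321 and from 0.000295 to 0.0308.

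ERBB3, the neuregulin receptor, passed in no comparison. Its signal was 121.7 and 110.4 in Mock, 96.5 and 99.1 after TNFα, 93.8 and 111.2 after FGF19, and 95.8 and 102.7 with both agents. The FGF19 arrays overlapped those of Mock, and the Mock arrays lay above those of TNFα and of FGF19 + TNFα. The intervals were -0.46 to 0.09 for FGF19 against Mock and -0.52 to 0.03 for TNFα against Mock on the log2 scale and both include 0.

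**Figure D1:**
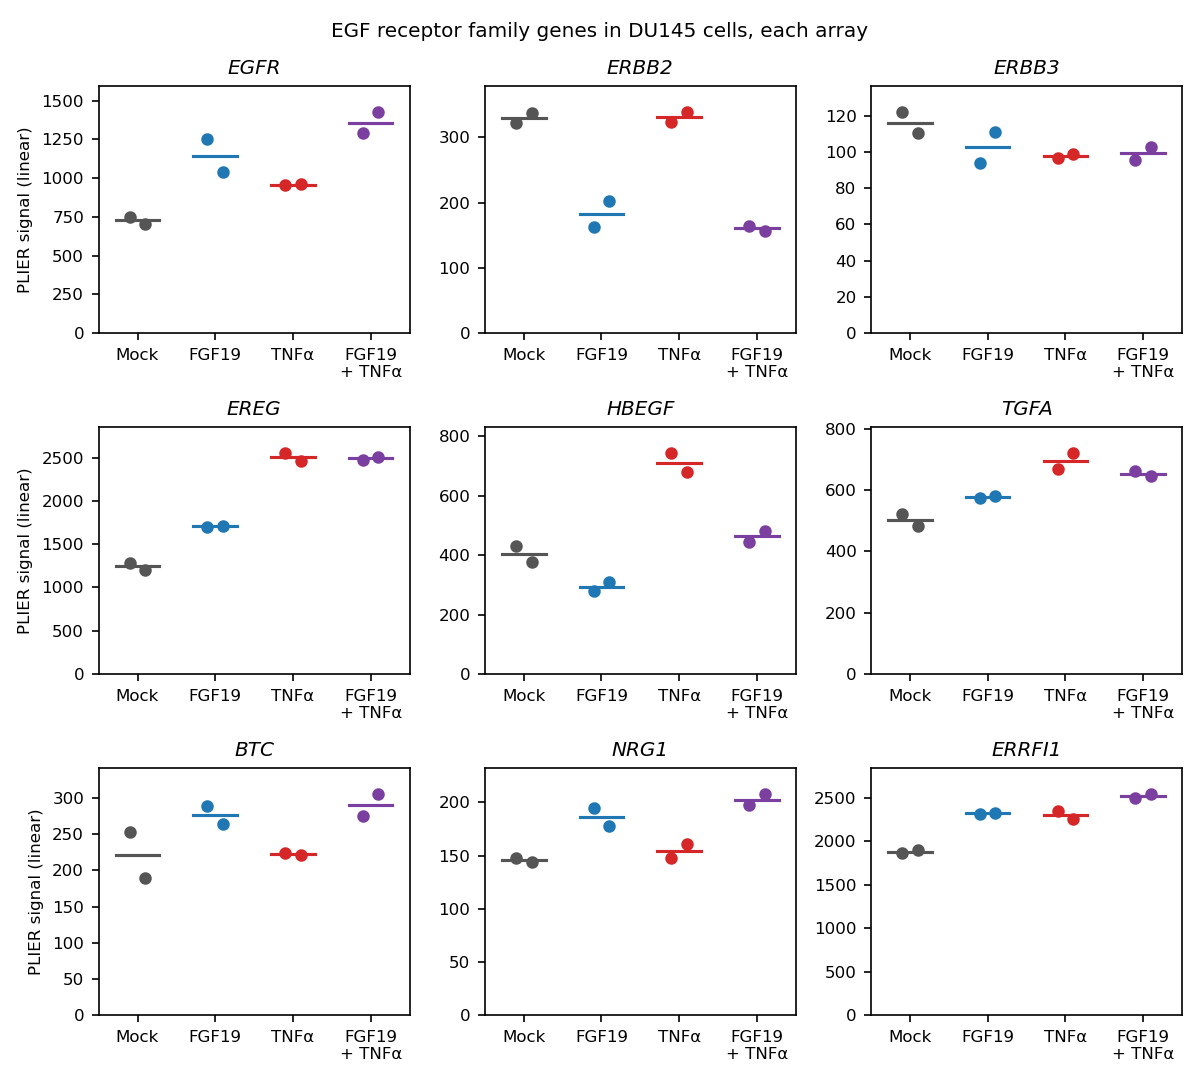
Linear PLIER signal (y axis, starting at 0 in each panel) of the 9 measured genes in each of the 4 groups (x axis); each point is 1 array and each horizontal line the mean of 2 arrays, with NRG1 at its brighter probeset. ERBB2 is at 156.9 to 201.9 in the 4 arrays with FGF19 and at 322.0 to 338.2 in the others, and EREG is at 2455 to 2547 in the arrays with TNFα alone and 1203 to 1286 in Mock.

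EREG, which encodes epiregulin, a ligand of EGFR and ERBB4, showed the smallest p-value of all members across the 4 groups. Its signal was 1286 and 1203 in the Mock arrays, 2547 and 2455 after TNFα, 1703 and 1711 after FGF19, and 2476 and 2510 with both agents. The groups followed the order Mock, FGF19 and then TNFα without overlap, and the FGF19 + TNFα arrays fell within the range of the TNFα arrays. TNFα raised EREG 2.01-fold (log2 difference 1.01, SE 0.08, limma adjusted p = 0.00494), and FGF19 raised it 1.37-fold (0.46, SE 0.08, adjusted p = 0.00854). Both agents together gave 2.00-fold over Mock (1.00, SE 0.08, adjusted p = 0.00163), and FGF19 on top of TNFα gave -0.00 (95% interval -0.20 to 0.19).

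The TNFα difference of EREG was therefore 1.01 without FGF19 and 0.55 with it on the log2 scale. The interaction, which tests the difference between these, was -0.46 (SE 0.12, 95% interval -0.74 to -0.18, unadjusted p = 0.0065) and did not pass after adjustment over all probesets (limma adjusted p = 0.816). EREG against FGF19 alone, 1.46-fold higher with both agents, also missed the threshold (adjusted p = 0.102, from 0.0054 to 0.662 over 16 alternatives, 3 of which passed). Its rise with TNFα passed in 14 of 16 alternatives, with adjusted p from 5.77e-05 to 0.0661; the exceptions were the fit without Mock replicate 2 and the fit of only the TNFα and Mock arrays (0.0607). Its rise with FGF19 was also lost in 2 of 16, without Mock replicate 2 (0.0572) and in the fit of only the FGF19 and Mock arrays (0.0501), in a range of 0.000703 to 0.0572.

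HBEGF, the heparin-binding EGF-like growth factor, was higher with TNFα and lower with FGF19. The Mock arrays had 432.3 and 377.4, the FGF19 arrays 279.2 and 308.1, the TNFα arrays 742.3 and 679.2, and the FGF19 + TNFα arrays 444.7 and 482.7. FGF19 arrays were the lowest and TNFα arrays the highest, and those with both agents lay just above Mock; no pair of groups overlapped. HBEGF rose 1.76-fold with TNFα (log2 difference 0.81, SE 0.11, limma adjusted p = 0.0368), fell 1.38-fold with FGF19 (-0.46, SE 0.11, adjusted p = 0.0245) and fell 1.53-fold when FGF19 was added to TNFα (-0.62, SE 0.11, adjusted p = 0.0104). FGF19 + TNFα against Mock gave 0.20 (95% interval -0.08 to 0.47, adjusted p = 0.228).

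The TNFα difference of HBEGF was 0.81 without FGF19 and 0.66 with it on the log2 scale, and the interaction was -0.15 (95% interval -0.54 to 0.23). HBEGF against FGF19 alone did not pass (adjusted p = 0.159, from 0.0265 to 0.718 over 16 alternatives). Its rise with TNFα was the least secure of its calls, lost when any 1 of the 8 arrays was left out (adjusted p from 0.0604 to 0.231) and passing in 5 of 16 alternatives. The fall with FGF19 was lost without Mock replicate 1 and without FGF19 replicate 1 (0.0928 to 0.127) and in the fit of only the groups compared (0.0715), in a range of 0.00752 to 0.127. The fall on top of TNFα was lost without TNFα replicate 1 and without FGF19 + TNFα replicate 1 (0.0538 to 0.0594), in a range of 0.0019 to 0.0594.

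TGFA, which encodes transforming growth factor α, had 522.8 and 484.2 in Mock, 668.1 and 719.6 after TNFα, 573.4 and 582.0 after FGF19, and 661.8 and 646.2 with both agents. The Mock arrays were the lowest and the TNFα arrays the highest, without overlap between any groups. TGFA rose 1.30-fold with FGF19 + TNFα against Mock (log2 difference 0.38, SE 0.09, limma adjusted p = 0.0193), and this was lost without any 1 of the 4 arrays compared (0.0541 to 0.108, in a range of 0.00565 to 0.108 over 16 alternatives). TNFα against Mock gave 0.46 (95% interval 0.25 to 0.68, adjusted p = 0.094) and FGF19 against Mock 0.20 (-0.01 to 0.41, adjusted p = 0.135), neither of which passed.

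BTC, which encodes betacellulin, a ligand of EGFR and ERBB4, passed in no comparison. Its signal was 253.8 and 189.7 in Mock, 223.7 and 221.0 after TNFα, 289.8 and 264.9 after FGF19, and 275.0 and 305.2 with both agents. The 4 arrays with FGF19 lay above the 4 without it, but the Mock arrays were far apart from each other. The log2 difference was 0.34 (95% interval -0.03 to 0.71, adjusted p = 0.145) for FGF19 against Mock and 0.38 (0.01 to 0.75, adjusted p = 0.103) for FGF19 + TNFα against TNFα. The first was 0.13 without Mock replicate 2 and 0.55 without Mock replicate 1, where it passed (adjusted p = 0.0464, in a range of 0.0464 to 0.546 over 16 alternatives). FGF19 + TNFα against Mock gave 0.40 (adjusted p = 0.09, from 0.0344 to 0.352), and it too passed without Mock replicate 1 (0.61) alone and was 0.19 without Mock replicate 2.

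NRG1, which encodes neuregulin 1, the ligand of ERBB3 and ERBB4, had 148.0 and 144.2 in Mock, 147.8 and 161.2 with TNFα, 194.4 and 178.3 with FGF19, and 197.2 and 207.5 with both agents at its brighter probeset. The arrays with FGF19 lay above those without it, and TNFα and Mock overlapped. NRG1 rose 1.27-fold with FGF19 (log2 difference 0.35, SE 0.09, limma adjusted p = 0.0323) and 1.31-fold when FGF19 was added to TNFα (0.39, SE 0.09, adjusted p = 0.0235). The dimmer probeset, at 43.1 to 68.9 and so within the background, gave 0.18 (95% interval -0.16 to 0.52) and 0.39 (0.05 to 0.74, limma adjusted p = 0.0774) and passed in neither. Both agents against Mock gave 0.11 (-0.23 to 0.45) at the dimmer probeset and 0.47 at the brighter one. The call at the brighter one was lost without either Mock array and without FGF19 + TNFα replicate 2. Its log2 difference there was 0.43 to 0.51 over the fits without 1 array. TNFα against Mock gave -0.29 (-0.63 to 0.055) at the dimmer probeset and 0.08 at the brighter one. At the brighter one, the rise with FGF19 was lost in 7 of the 8 fits that left out 1 array, all but the fit without FGF19 replicate 2 (0.0526 to 0.138), in a range of 0.0204 to 0.138 over 16 alternatives. The rise on top of TNFα was lost without any 1 of the 4 arrays compared (0.0626 to 0.122), in a range of 0.0138 to 0.122.

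ERRFI1, the feedback inhibitor of the receptors, had 1862 and 1900.4 in Mock, 2348 and 2261 after TNFα, 2317 and 2329 after FGF19, and 2501 and 2538 with both agents. Mock was the lowest group and FGF19 + TNFα the highest, whereas the arrays with a single agent overlapped each other. ERRFI1 rose 1.23-fold with FGF19 (log2 difference 0.30, SE 0.08, limma adjusted p = 0.0274) and 1.34-fold with both agents against Mock (0.42, SE 0.08, adjusted p = 0.0088). The call with both agents was lost without Mock replicate 1 and without FGF19 + TNFα replicate 2. Its log2 difference was 0.41 to 0.44 over the fits without 1 array. TNFα against Mock gave 1.22-fold (0.29, 95% interval 0.11 to 0.48) and did not pass (adjusted p = 0.213). The rise with FGF19 was lost when any 1 of the 8 arrays was left out (0.0517 to 0.124), in a range of 0.00373 to 0.124 over 16 alternatives.

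Across the family, TNFα against Mock gave 2 of 9 members higher, EREG and HBEGF, both of them ligands, and 0 lower, where 1.06% of all probesets passed, 0.967% higher and 0.0961% lower. The median log2 difference of the members was 0.29 beside -0.04 over all probesets. The groups did not overlap for 6 of 9 members, beside 51.5% of all probesets. With each array left out in turn, the log2 difference ran from 0.96 to 1.06 for EREG and from 0.72 to 0.91 for HBEGF. FGF19 against Mock gave 4 higher (EGFR, EREG, NRG1 and ERRFI1) and 2 lower (ERBB2 and HBEGF), where 32.2% of probesets passed, 18.2% higher and 14.1% lower. With that background the number of members called is not by itself particular to the family. When the dimmest 20 percent of probesets were left out, 2.11% of the rest passed for TNFα against Mock and 42.8% for FGF19 against Mock. The median was 0.30 beside 0.08. Over the fits without 1 array, the log2 difference was 0.51 to 0.78 for EGFR, -1.02 to -0.71 for ERBB2 and -0.56 to -0.36 for HBEGF. It was 0.41 to 0.505 for EREG, 0.29 to 0.41 for NRG1 and 0.29 to 0.32 for ERRFI1.

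FGF19 + TNFα against TNFα gave 2 higher (EGFR and NRG1) and 2 lower (ERBB2 and HBEGF), where 32.4% of probesets passed, 19.4% higher and 12.9% lower, and a median of 0.02 beside 0.10. Over the fits without 1 array, the log2 difference was 0.43 to 0.57 for EGFR and 0.33 to 0.45 for NRG1. It was -1.08 to -1.01 for ERBB2 and -0.68 to -0.55 for HBEGF. FGF19 + TNFα against FGF19 gave 0 of 9 by limma, where 0.282% of probesets passed, 0.279% higher and 0.003% lower. At an unadjusted p under 0.05 there were 2 members, EREG and HBEGF. With a trended and robust prior these 2 passed, where 0.697% of all probesets did. FGF19 + TNFα against Mock gave 5 higher (EGFR, EREG, TGFA, NRG1 and ERRFI1) and 1 lower (ERBB2), where 33.9% passed, 19.3% higher and 14.7% lower. Without 1 array, the log2 difference was 0.83 to 0.97 for EGFR, 0.955 to 1.05 for EREG and -1.08 to -1.01 for ERBB2. It was 0.32 to 0.43 for TGFA, 0.43 to 0.51 for NRG1 and 0.41 to 0.44 for ERRFI1. The groups did not overlap for 8 of 9 members in FGF19 against Mock (66.9% of all probesets), 7 in FGF19 + TNFα against TNFα (70.0%), 6 in FGF19 + TNFα against FGF19 (28.5%) and 9 in FGF19 + TNFα against Mock (71.1%). These comparisons share arrays, so their values are given side by side and not as separate evidence. The interaction gave 0 of 9 by limma, where 0.0% of probesets passed, with 1 at an unadjusted p under 0.05, EREG. It gave 0 members under every alternative run. The share of all probesets was not 0.0% in each of these, and was 0.012% with a trended and robust prior. The moderated F test over the 4 groups, at an adjusted p of 0.015, called EREG (0.00222), HBEGF (0.00288), ERBB2 (0.00292) and EGFR (0.00781), 4 of 9 members where 20.9% of probesets passed; of the 8 fits that left out 1 array, EGFR lost its call in 6, ERBB2 in 3, HBEGF in 1 and EREG in 0.

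**Figure D2:**
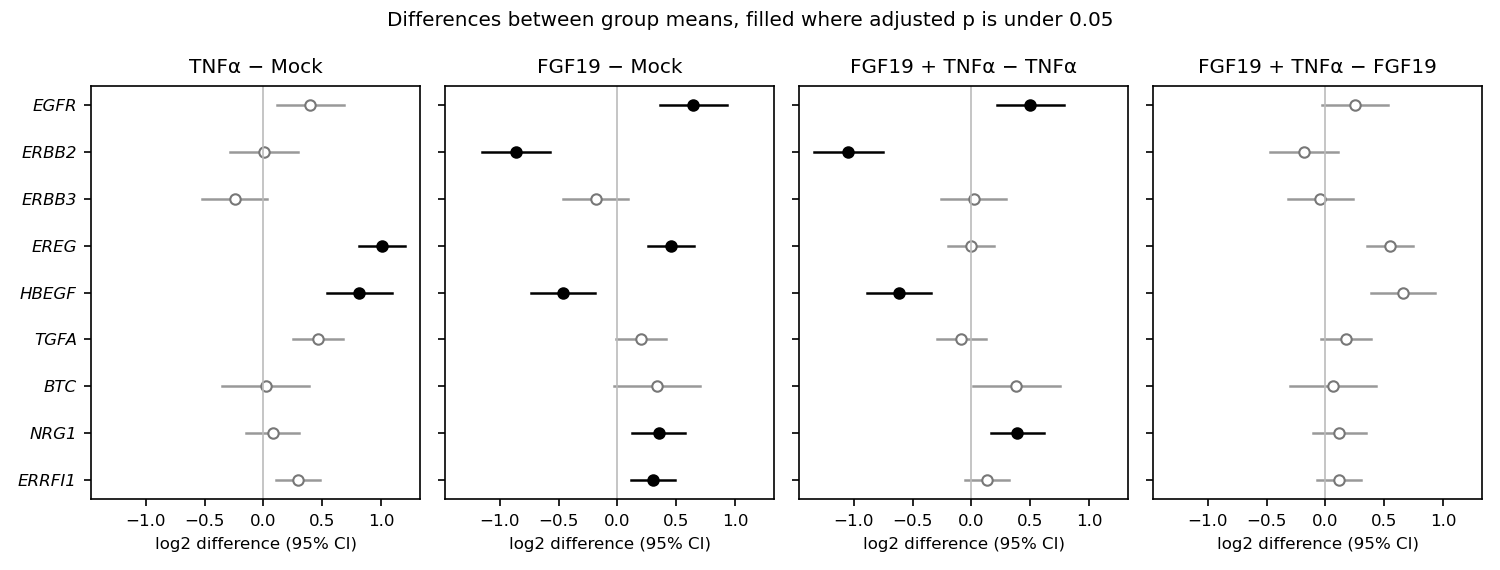
Log2 difference between group means (x axis) with its 95% interval for each of the 9 genes (y axis) in the comparisons named above the panels, filled where the limma adjusted p was under 0.05. ERBB2 lies left of 0 and EGFR right of 0 in the comparisons of arrays with FGF19 against arrays without it, and HBEGF lies right of 0 with TNFα and left of 0 with FGF19.

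Each agent's difference was set against its difference in the presence of the other, with equal values on the diagonal. For TNFα, HBEGF had 0.81 and 0.66 and EGFR 0.40 and 0.25 on the log2 scale. EREG, at 1.01 and 0.55, lay farthest from the diagonal. For FGF19, EGFR had 0.65 and 0.50, ERBB2 -0.86 and -1.05 and HBEGF -0.46 and -0.62, while EREG had 0.46 and -0.00. No member passed the interaction test.

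**Figure D3:**
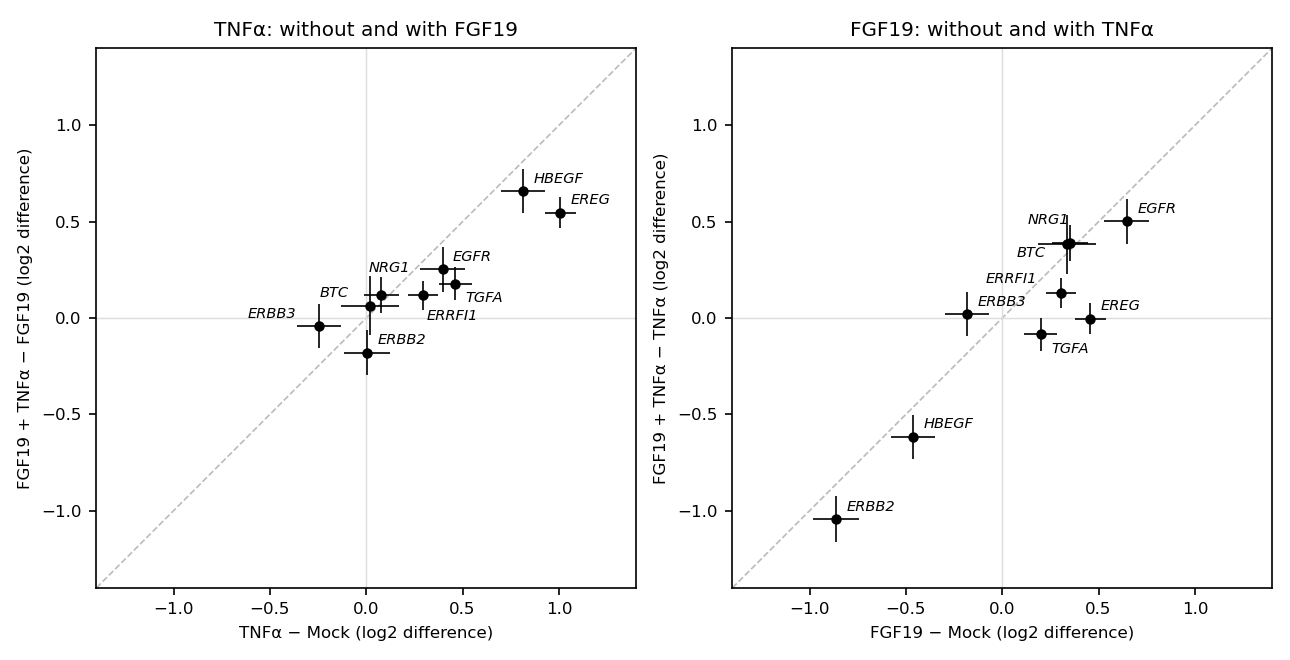
Log2 difference made by TNFα (left) and by FGF19 (right) without the other agent (x axis) and in its presence (y axis), with bars of 1 SE and the dashed line marking equal differences; each point is 1 gene, and values on the axes share arrays. EREG lies below the line in both panels, at 1.01 and 0.55 for TNFα and at 0.46 and -0.00 for FGF19.

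The remaining receptors and ligands of the family, ERBB4, EGF, EPGN, NRG2, NRG3 and NRG4, were all measured. TNFα against Mock gave 0 of 6, where 1.06% of all probesets passed, and FGF19 against Mock gave 3 higher and 0 lower, where 18.2% of all probesets were higher and 14.1% lower. The median log2 difference with FGF19 was 0.50 beside 0.08 over all probesets, and 1 of the 3, ERBB4, lay within the background range. NRG4, a neuregulin that binds ERBB4, had 231.2 and 269.2 in Mock, 227.4 and 225.9 after TNFα, 423.7 and 416.9 after FGF19, and 397.0 and 361.8 with both agents. It rose 1.68-fold with FGF19 (0.75, SE 0.11, adjusted p = 0.00431) and 1.67-fold on top of TNFα (0.74, SE 0.11, adjusted p = 0.00511). EGF, the founding ligand of the family, rose with FGF19 (fitted log2 difference 0.55, SE 0.09, adjusted p = 0.00699), from 71.3 and 76.0 in Mock to 107.1 and 109.0; its Mock arrays lay on either side of the background limit of 73.0, so no fold is given. ERBB4, the remaining receptor, also passed (adjusted p = 0.00454), although its signal of 30.0 to 51.1 over the 8 arrays lay within the background.

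Genes of ligand shedding were represented by 9 of 9. TNFα against Mock gave 0 of them, and FGF19 against Mock gave 1 higher and 4 lower, beside 18.2% and 14.1% of all probesets, with a median of -0.21 beside 0.08. ADAM15, a membrane metalloprotease, had 390.2 and 390.9 in Mock, 380.5 and 381.7 with TNFα, 133.3 and 170.9 with FGF19, and 154.8 and 153.6 with both agents. It fell 2.59-fold with FGF19 (-1.37, SE 0.13, adjusted p = 0.00275) and 2.47-fold on top of TNFα (-1.31, SE 0.13, adjusted p = 0.00348). The study itself lists ADAM15 as lower from these arrays, so it is no independent evidence of direction. RHBDF2 and RHBDF1, the inactive rhomboids that carry ADAM17 to the cell surface, fell 1.53-fold and 1.29-fold with FGF19 (adjusted p = 0.0146 and 0.0212). The FGF19 arrays of RHBDF2, at 81.9 and 84.9, lay close to the background limit of 73.0. ADAM17, the main protease of HBEGF, TGFA and EREG, named here after its values were seen, was the 1 that rose, by 1.23-fold (0.30, SE 0.08, adjusted p = 0.0288), from 1400 and 1446 in Mock to 1741 and 1752.

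Adaptors and early effectors of receptor signaling were measured for 24 of 32 genes. TNFα raised 1 of them, STAT5A, a transcription factor activated by tyrosine phosphorylation, by 4.30-fold (2.11, SE 0.10, adjusted p = 0.00118), from 100.9 and 108.7 to 435.5 and 466.2. Its probeset is also in the study's own list from these arrays, so it is no independent evidence of direction. FGF19 against Mock gave 8 higher and 8 lower, beside 18.2% and 14.1% of all probesets, with a median of -0.09 beside 0.08. SOS1, the exchange factor that activates RAS, rose 2.58-fold (1.37, SE 0.14, adjusted p = 0.00281), from 314.1 and 337.9 in Mock to 744.2 and 949.2. The docking protein GAB1, a gene the study itself picked from these arrays and so no independent evidence of direction, rose 2.05-fold (1.03, SE 0.11, adjusted p = 0.00287). On top of TNFα the counts were 7 higher and 8 lower, beside 19.4% and 12.9% of all probesets.

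Genes linked to down-regulation or inhibition of the receptors, not sorted by how each acts on them, were measured for 29 of 30. TNFα raised 1 of them, SPRY4, an inhibitor of RAS-MAPK signaling (fitted log2 difference 1.97, SE 0.15, adjusted p = 0.00377), from 49.6 and 62.6 in Mock to 210.5 and 225.4; its Mock signal lay within the background, so no fold is given. FGF19 against Mock gave 14 higher and 5 lower, beside 18.2% and 14.1% of all probesets, with a median of 0.34 beside 0.08. With the dimmest 20 percent of probesets left out, 42.8% of the rest passed in either direction. On top of TNFα 13 were higher and 4 lower, beside 19.4% and 12.9%. EPS15, an adaptor of receptor endocytosis, rose 1.94-fold with FGF19 (0.96, SE 0.09, adjusted p = 0.00276). SOCS4, which promotes EGFR degradation, rose 1.79-fold (0.84, SE 0.08, adjusted p = 0.00277), from 539.2 and 543.9 in Mock to 940.4 and 1003.

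Because HBEGF binds heparin, 11 other heparin-binding growth factors were listed, and all were measured. TNFα gave 0 of 11, and FGF19 against Mock gave 1 higher and 4 lower, beside 18.2% and 14.1% of all probesets, with a median of -0.02 beside 0.08. PDGFB, a platelet-derived growth factor chain, had 126.5 and 147.6 in Mock, 193.9 and 175.7 after TNFα, 95.8 and 100.9 after FGF19, and 128.1 and 122.8 with both agents. It fell 1.39-fold with FGF19 (-0.48, SE 0.11, adjusted p = 0.0199) and 1.47-fold on top of TNFα (-0.56, SE 0.11, adjusted p = 0.0127), and its TNFα difference of 0.43 did not pass (adjusted p = 0.197). CCN1 and CCN2, matrix-bound growth regulators, fell 1.49-fold and 1.52-fold with FGF19 (adjusted p = 0.0112 and 0.0167).

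**Figure D4:**
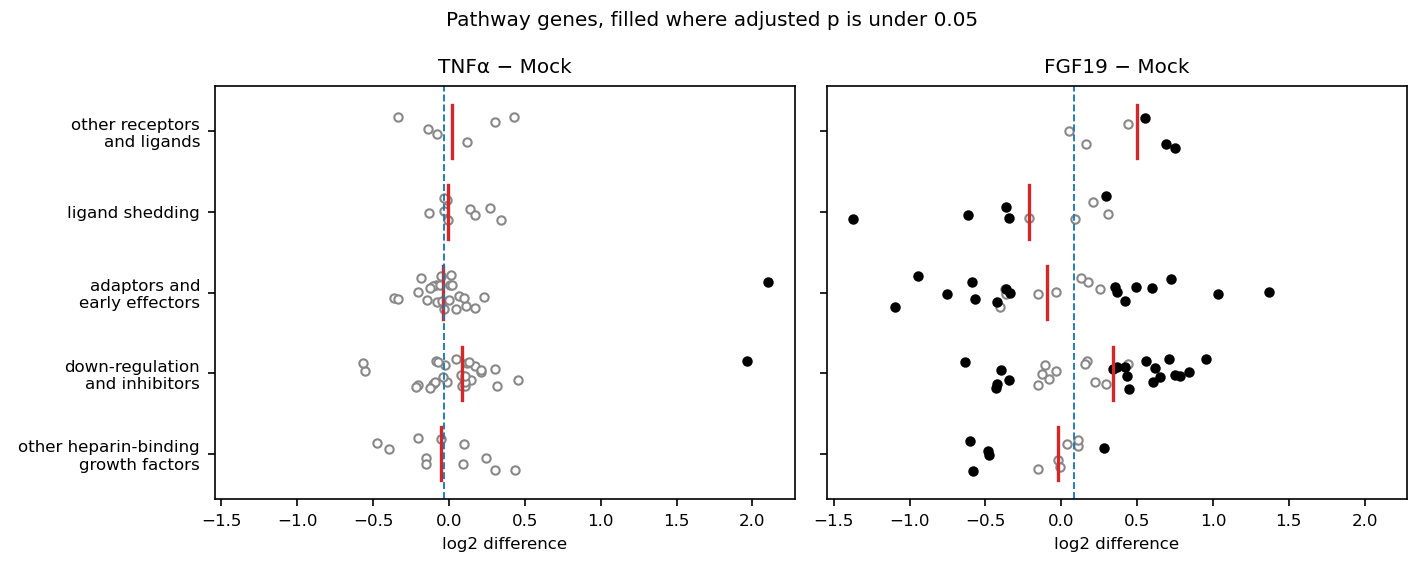
Log2 difference (x axis) of each gene in the 5 pathway lists (y axis) for the comparisons named above the panels, filled where the limma adjusted p was under 0.05; the red line is the median of a list and the dashed line the median over all probesets, and the vertical spread within a list carries no value. With TNFα 1 adaptor (STAT5A, 2.11) and 1 inhibitor (SPRY4) are filled. With FGF19 the list of down-regulation and inhibitors has 14 filled points above 0 and 5 below.

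The probesets whose pattern over the 8 arrays was most like that of a member were found by the root mean square (RMS) difference of log2 signal, after centring each on its own mean. The 17193 candidates had 1 symbol and a mean log2 signal above the 20th percentile of all probesets. Closest to EREG were SMURF2 (RMS 0.06), CYLD (0.07), NEDD4L (0.07), C3orf52 (0.08) and PTGER4 (0.09). SMURF2 and NEDD4L are ubiquitin ligases and CYLD is a deubiquitinase that limits NFκB signaling. The group mean signals of SMURF2 were 926.9 in Mock, 1277 with FGF19, 1848 with TNFα and 1998 with both agents.

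Closest to HBEGF were PPP1R3B (RMS 0.06), IL4R (0.08), SLC25A37 (0.09), ITGA5 (0.10) and MAP2K3 (0.11). Means of IL4R, a cytokine receptor subunit, were 167.3 in Mock, 118.3 with FGF19, 297.5 with TNFα and 194.6 with both agents. Closest to ERBB2 were SLC26A6 (0.04), BET1L (0.05), NEU1 (0.05), which 2 probesets with the same values represent, and OSTC (0.05). SLC26A6, an anion exchanger, had means of 308.1, 166.8, 296.2 and 154 in the same order. The likeness is a description over 8 arrays that share their treatments.

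**Figure D5:**
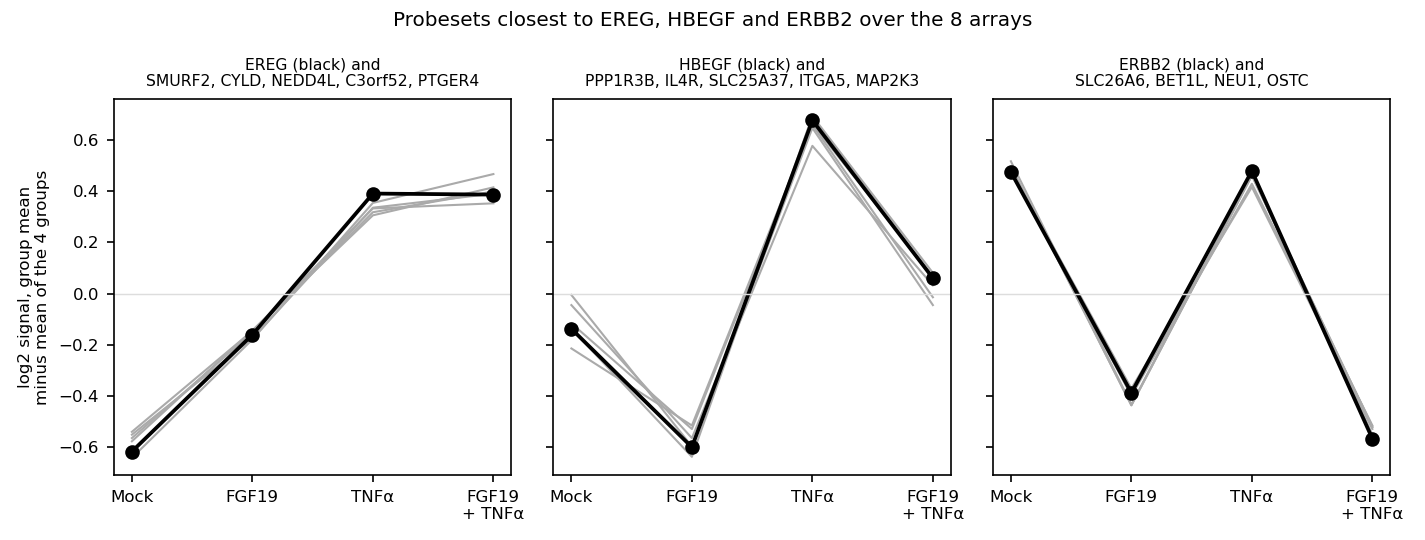
Log2 signal as the group mean minus the mean of the 4 groups (y axis) in the 4 groups (x axis) for EREG, HBEGF and ERBB2 (black) and the 5 probesets most like each (grey). The curves of EREG and SMURF2 (RMS 0.06), HBEGF and PPP1R3B (RMS 0.06) and ERBB2 and SLC26A6 (RMS 0.04) run close together.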

How the data were processed

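The table the authors deposited holds linear intensity of 33297 probesets on 8 arrays, computed with PLIER in Affymetrix Expression Console according to the submitters' processing notes. Software versions and the normalization were not given in the sources used here. Groups and replicate numbers were read from the sample labels. Precision is limited by 2 arrays per group. The 240 zeros were replaced by 0.01, which is the smallest positive value, log2 was taken, and no further normalization was applied.

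A model with 4 group means was fitted to all 8 arrays and 33297 probesets with limma 3.58.1 in R 4.3.3 (lmFit, eBayes), with Benjamini-Hochberg adjustment, called at 0.05, or at 0.015 for the F test over the 4 groups. The steps were tested on simulated data. Probesets were named from the platform annotation when they had 1 symbol (19460), updated through Entrez identifiers to RefSeq for 19429. A gene was represented by its brightest probeset. Each member is named, with up to 3 genes of each of 5 pathway lists by F p and the 5 probesets most like each of the 3 members with the smallest F p; ADAM17 and the marker genes CDH1, CD3E and CD68 are named outside this rule, after their values were seen. Members and lists were chosen with earlier results of these data known.

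The fits were repeated after quantile or cyclic loess scaling, with 16 added to each signal, with the dimmest 20 percent of probesets removed, with unmoderated variances, with a trended and robust prior, with the replicate number as a block, on only the groups compared, with the next brightest probeset, and without each array in turn. Promoter stretches came from RefSeq on GRCh38.p14.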

Additional observations from a re-analysis of the deposited data

How the results depend on the processing

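No called member changed sign under any alternative. Under quantile and cyclic loess normalization the counts of members called were as reported, while the median log2 difference of all probesets moved from 0.10 to 0.01 and 0.01 for FGF19 + TNFα against TNFα. Of 18 calls of members in the 5 comparisons of groups, 5 were kept in each fit that left out 1 array (ERBB2 in 3 comparisons, EGFR and EREG in FGF19 + TNFα against Mock) and 13 were lost in 1 or more. The share of all probesets called moved with these settings and is given in brackets after each count of members. Members called for TNFα against Mock numbered 4 with a trended and robust prior (1.9%) and 0 when only the groups compared were fitted (0.309%), beside 2 (1.06%). FGF19 against Mock gave 2 with only the groups compared (21.3%), beside 6 (32.2%). FGF19 + TNFα against FGF19 gave 1 with 16 added before log2 (0.541%) and 1 without the dimmest 20 percent (0.649%). It gave 2 with a trended and robust prior (0.697%), beside 0 (0.282%). The F test called 2 without moderation of variances (7.43%) and 7 with a trended and robust prior (29.4%), beside 4 (20.9%). The causes were not tested. A fit without 1 array estimates the spread from fewer arrays for every probeset. A lost call therefore does not by itself show that it rested on that array.

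The labels number the replicates but do not say that a number pairs arrays, and the deviations of same-numbered arrays correlated at 0.01 to 0.33 over probesets. With the replicate number as a block, 1 member passed for TNFα against Mock, EREG, where 0.775% of all probesets passed. HBEGF had a limma adjusted p of 0.078 in that fit. In the F test 3 members passed, where 16.4% of all probesets did.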
